A study of Arabidopsis thaliana with 24 samples.

Results

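Leaves of Arabidopsis thaliana plants that overexpress SOS1 were compared with leaves of the wild type the labels give them, the glabrous Columbia stock Col(gl), both grown under salt. The comparison rests on 4 of the 24 samples of the series: the 2 arrays labelled as SOS1 leaf at 100 mM NaCl and the 2 labelled as Col(gl) leaf at 100 mM NaCl. It was read over 22746 of the 22810 probe sets of the Affymetrix ATH1 array, after 64 control probe sets were left out. Salted SOS1 plants are labelled as overexpressors in the Col(gl) background, and salted Col(gl) plants as wild type of that background. Plants of both groups were sampled 20 days after sowing. Salt had begun on day 14, 6 days before, and the NaCl solution was raised by 50 mM every 2 days up to 100 mM. The unsalted SOS1 and Col(gl) groups, of the same age and with 2 arrays each, were used to see which differences were also present at 0 mM NaCl. Each sample held grown leaves of at least 15 seedlings, raised in a short day with 10 h of light (14 h dark). The labels call the 2 arrays of a group biological replicates and do not give the promoter of the transgene or the number of independent lines. An effect of the transgene and any other difference between the SOS1 line and the Col(gl) stock grown beside it cannot be told apart in the values below.

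The other 16 arrays hold 2 further lines, CBF3 in Wassilewskija (Ws) and M6PR in Columbia (Col), with their wild types at both salt levels. The series set out to compare the transcriptomes of transgenes for salt resistance, each line against its own wild type. For SOS1 under salt that comparison is the one with Col(gl) at 100 mM NaCl.

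SOS1 is an antiporter of the plasma membrane that moves sodium out of the cell in exchange for protons. It acts at the end of the SOS pathway, in which the calcium sensor SOS3 and the kinase SOS2 switch the transporter on, and it is known for sodium export from roots and for loading of sodium into the xylem stream that reaches the leaf. Leaves under salt are also known for changes in osmotic adjustment, growth, wall loosening and pigments of the flavonoid pathway.

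The probe set of SOS1 itself is not paired with a gene in the annotation used, so the labels were not checked by the targeted gene. Leaf identity was checked with RCA, the activase of Rubisco, which read 13.44 and 13.53 in salted SOS1 and 13.44 and 13.49 in salted Col(gl) on the log2 scale of the arrays. EXPA7, a gene of root hairs, read 4.54 and 4.43 in salted SOS1 and 4.33 and 4.43 in salted Col(gl), near the lowest signals. Because whole leaves were pooled, fewer cells of a type and less RNA per cell cannot be told apart in any value below. Detection calls were not used, so a low level is a signal with no check that it lay above background.

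The 2 salted SOS1 arrays differed from each other more than the 2 salted Col(gl) arrays did. The SD over probe sets of the difference between the 2 arrays was 0.52 log2 units in salted SOS1 and 0.19 in salted Col(gl), within a range of 0.17 to 0.63 over all 12 groups. A gap of at least 1 log2 unit between the 2 arrays was seen for 1196 probe sets (5.26%) in salted SOS1 and for 14 (0.0615%) in salted Col(gl). A gap of at least 2 log2 units was seen for 214 probe sets in salted SOS1, with replicate 1 higher in 203 of them, and for 0 in salted Col(gl). Among single-gene probe sets, chosen here by the size of this gap, EXO, a gene of leaf growth, read 11.57 in SOS1 replicate 1 and 6.6 in replicate 2, against 10.74 and 10.71 in salted Col(gl). CML38, a calmodulin-like protein gene known for its response to touch and wounding, read 9.69 and 5.06 in salted SOS1, against 8.54 and 8.73 in salted Col(gl). RR16, a response regulator of cytokinin signalling, went the other way, with 5.12 in replicate 1 and 7.21 in replicate 2 of salted SOS1, against 5.8 and 5.6 in salted Col(gl). For genes of this kind the mean of salted SOS1 describes neither of its arrays, and calls are therefore also given without single arrays.

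In all, limma called 713 probe sets at an adjusted p below 0.05 (3.13% of those tested), 327 higher (1.44%) and 386 lower (1.7%) in salted SOS1 than in salted Col(gl). Of these, 410 (1.8% of those tested) changed at least 2-fold, 178 higher and 232 lower. A change of at least 4-fold was seen for 26 of the higher and 45 of the lower ones. The 2 groups did not overlap for any of the 713, while 49.0% of all probe sets tested had groups that did not overlap. A single gene was paired with 373 of the called probe sets (162 higher, 211 lower), several genes with 10 and no gene with 330. The median log2 fold change was 1.04 among the higher ones, -1.14 among the lower ones and 0.03 over all probe sets. SOS1 replicate 1 lay nearer than replicate 2 to the Col(gl) mean for 227 of the 327 higher and 285 of the 386 lower probe sets. Without SOS1 replicate 1 the count of calls was 1483, and without SOS1 replicate 2 it was 183. It was 88 without Col(gl) replicate 1 and 115 without Col(gl) replicate 2.

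Genes that decorate anthocyanins and flavonols with sugars and acyl groups were higher in salted SOS1. Of the 7 measured genes of the anthocyanin and flavonoid list 5 rose and 0 fell, and the median log2 fold change of the 7 was 1.92. Over all probe sets tested 1.44% were called higher and 1.7% lower, the shares to set beside each list and family count below. UF3GT, which adds xylose to the anthocyanin sugar, had levels of 8.94 and 9.66 in salted SOS1, against 6.48 and 6.76 in salted Col(gl). That is a rise of 2.68 ± 0.47 log2 units (SE, n = 2 arrays per group; limma, adjusted p = 0.0064), or 6.43-fold. AT5MAT, the malonyltransferase that acts on the same pigments, had levels of 6.59 and 7.38 in salted SOS1, against 4.58 and 4.69 in salted Col(gl). It rose 5.11-fold (2.35 ± 0.45 log2 units, adjusted p = 0.010). AT4G14090, listed by its locus tag alone, had levels of 8.0 and 9.75 in salted SOS1 and 6.48 and 6.37 in salted Col(gl), and rose by 2.46 ± 0.57 log2 units (adjusted p = 0.030). At 0 mM NaCl all 7 genes of the list also had a positive difference, with a median of 1.55. UF3GT passed there as well (2.23 ± 0.47, limma, adjusted p = 0.033). Unsalted Col averaged 10.17 for UF3GT, above SOS1 with salt (9.30) and without it (9.34), while unsalted Ws and M6PR averaged 6.47 and 6.76.

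Genes of sugar transfer to flavonols and other flavonoids were also higher in salted SOS1. UGT78D1, a rhamnosyltransferase of flavonols, had levels of 8.28 and 9.15 in salted SOS1, against 6.64 and 6.94 in salted Col(gl), a rise of 1.92 ± 0.28 log2 units (adjusted p = 0.0020). UGT78D2, a glucosyltransferase of flavonoids, had levels of 8.46 and 9.02 in salted SOS1, against 7.02 and 6.90 in salted Col(gl), a rise of 1.79 ± 0.36 log2 units (adjusted p = 0.015). As in all 713 called probe sets, the 2 groups did not overlap for these 5 genes. DFR, the reductase that makes leucoanthocyanidins upstream of them, had levels of 10.69 and 10.33 in salted SOS1, against 9.39 and 9.47 in salted Col(gl). Its difference of 1.08 ± 0.72 log2 units did not pass (adjusted p = 0.57). BAN, an enzyme of proanthocyanidin synthesis in the seed coat, lay near the lowest signals in both groups, at 3.91 and 4.08 in salted SOS1 and 4.08 and 4.01 in salted Col(gl). Without SOS1 replicate 1 the count was again 5. It was 1, UGT78D1, without SOS1 replicate 2 (adjusted p = 0.031), without Col(gl) replicate 1 (adjusted p = 0.047) and without Col(gl) replicate 2 (adjusted p = 0.017). For UF3GT the adjusted p was 0.080 without SOS1 replicate 2, 0.094 without Col(gl) replicate 1 and 0.057 without Col(gl) replicate 2.

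**Figure D1:**
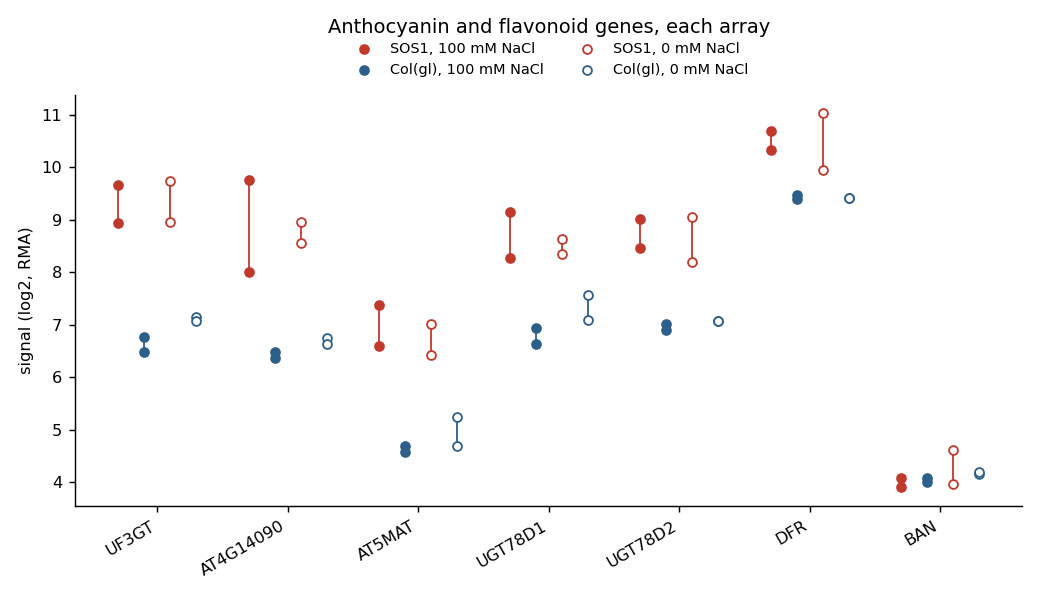
Signal (log2, RMA) of the 7 measured genes of the anthocyanin and flavonoid list in each array of SOS1 and Col(gl), with filled points for 100 mM NaCl, open points for 0 mM NaCl and a line joining the 2 arrays of a group. For UF3GT the salted SOS1 arrays sit at 8.94 and 9.66 and the salted Col(gl) arrays at 6.48 and 6.76, while BAN stays near 4 in every group.

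QQS, an orphan gene of Arabidopsis known for its effect on leaf starch, was the most even of the large rises. Its levels were 8.53 and 8.54 in salted SOS1, against 6.28 and 6.42 in salted Col(gl), a rise of 2.18 ± 0.23 log2 units, or 4.53-fold (adjusted p = 0.00020). At 0 mM NaCl it stood at 8.59 and 8.42 in SOS1, against 6.13 and 6.13 in Col(gl), a rise of 2.37 ± 0.23 log2 units (adjusted p = 0.00020). The other salted groups averaged 5.95 in M6PR, 5.84 in Col, 4.05 in CBF3 and 4.06 in Ws. QQS was 1 of 8 measured genes of the sugar starvation and starch list to pass, and 0 fell. The enzymes AMY1, DPE1, APL3 and SBE2.2 of starch breakdown and synthesis did not pass, with differences of -0.33, 0.19, 0.29 and -0.23 log2 units.

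All 4 SOS1 arrays, salted and unsalted, lay above all 20 arrays of the other genotypes for 7 probe sets (0.0308% of those tested) and below them for 19 (0.0835%). Of these 26, 4 were also called between the salted groups: QQS and 2 probe sets with no gene higher, and 1 with no gene lower. QQS read 8.42 to 8.59 in the 4 SOS1 arrays and at most 7.63 in the other 20.

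Genes that build and loosen the cell wall were called in both directions. Of the 14 measured genes of the cell wall and growth list 3 rose (TBL26, GH9C2 and EXPA4) and 1 fell (XTH19), with a median log2 fold change of -0.02. TBL26, of the family that acetylates wall polysaccharides, had levels of 9.58 and 10.07 in salted SOS1, against 7.61 and 7.70 in salted Col(gl), a rise of 2.17 ± 0.45 log2 units (adjusted p = 0.016). GH9C2, an endoglucanase gene of glycosyl hydrolase family 9, had levels of 8.24 and 10.31 in salted SOS1, against 7.22 and 7.24 in salted Col(gl), a rise of 2.05 ± 0.51 log2 units (adjusted p = 0.040). Its 2 SOS1 arrays lay 2.06 apart, about as far as the groups did.

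Expansins loosen the wall without cutting it, and 3 of the 18 measured family members rose while 0 fell. EXPB1 had levels of 7.26 and 7.88 in salted SOS1, against 5.61 and 5.53 in salted Col(gl), a rise of 2.00 ± 0.44 log2 units (adjusted p = 0.023). EXPB3 rose by 1.22 ± 0.27 and EXPA4 by 1.17 ± 0.29 log2 units (adjusted p = 0.025 and 0.043). The median over the 18 was 0.13.

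XTH19, a xyloglucan endotransglucosylase that cuts and rejoins wall polymers, was lower, at 6.37 and 5.66 in salted SOS1, against 8.50 and 8.67 in salted Col(gl). It fell by 2.57 log2 units (SE 0.61, adjusted p = 0.034), or 5.94-fold, and was the only one of 9 measured family members to pass. At 0 mM NaCl the 2 genotypes overlapped, with 6.23 and 5.13 in SOS1 and 5.87 and 5.71 in Col(gl). The salted means of the other genotypes were 7.97 in M6PR, 8.59 in Col, 5.82 in CBF3 and 9.31 in Ws, so that the salted SOS1 mean of XTH19 lay near that of CBF3 and the Col(gl) mean near that of Col. The difference between the line effects at 100 and 0 mM NaCl did not pass for XTH19 (adjusted p = 1.0).

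EXO, EXLA1 and EXLA2, further growth genes of the list, did not pass, with log2 fold changes of -1.64 ± 0.97, -2.35 ± 0.86 and -0.71 ± 0.65. For EXLA1 the SOS1 arrays read 10.74 and 6.6, against 10.97 and 11.08 in salted Col(gl). Without SOS1 replicate 1 all 3 passed as lower (adjusted p = 9.3e-05, 0.00017 and 0.010), and the wall list then had 4 genes higher and 4 lower. Without SOS1 replicate 2, Col(gl) replicate 1 or Col(gl) replicate 2 it had 0 in either direction, and the same was true of the expansins.

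**Figure D2:**
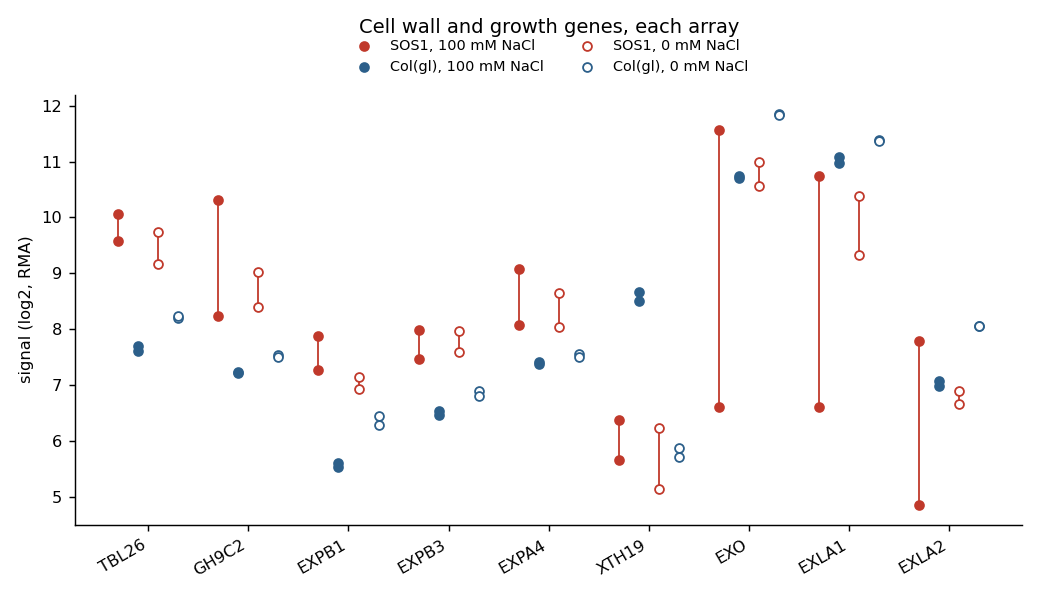
Signal (log2, RMA) of 9 cell wall and growth genes in each array of SOS1 and Col(gl), with filled points for 100 mM NaCl, open points for 0 mM NaCl and a line joining the 2 arrays of a group. The long lines of EXO, EXLA1 and EXLA2 show the gap between the 2 salted SOS1 arrays, which for EXO read 11.57 and 6.6.

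The 15 largest rises among single-gene probe sets ran from 1.87 to 3.18 log2 units. Beside the pigment, wall and QQS genes they held GT72B1, a glucosyltransferase known for work on phenolic compounds and xenobiotics, and 6 genes that carry a locus tag alone. GT72B1 had levels of 9.09 and 9.12 in salted SOS1, against 6.99 and 7.25 in salted Col(gl), a rise of 1.99 ± 0.37 log2 units (adjusted p = 0.0095). AT1G13650 had the largest rise, with 8.74 and 7.71 in salted SOS1 and 5.02 and 5.07 in salted Col(gl), or 9.09-fold (3.18 ± 0.60 log2 units, adjusted p = 0.0096). AT1G04770 rose 7.93-fold and AT1G60590 7.21-fold, and AT5G01790, AT5G59350 and AT4G29020 rose by 1.96, 1.91 and 1.87 log2 units. A probe set with no gene paired moved further than any of these, with 10.28 and 9.67 in salted SOS1, against 6.08 and 5.82 in salted Col(gl) (adjusted p = 0.027). Its call was lost without each of the 4 arrays in turn, with adjusted p of 0.071 to 0.18.

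The 15 largest falls ran from -2.23 to -3.90 log2 units, and XTH19 was the only one with a gene symbol. AT3G23550 fell most, to 6.45 and 5.29 in salted SOS1, against 9.87 and 9.67 in salted Col(gl), a change of -3.90 ± 0.41 log2 units or 14.9-fold (adjusted p = 0.00017). AT1G72060 was at 6.41 and 4.74 in salted SOS1 and 9.37 and 9.17 in salted Col(gl), 13.0-fold lower (adjusted p = 0.00044). AT1G52200 was at 6.38 and 5.70 in salted SOS1 and 9.52 and 9.62 in salted Col(gl), 11.5-fold lower (adjusted p = 0.0019). The next were AT2G39400, AT1G22890, AT4G25390, AT3G16530 and AT5G18470, with log2 fold changes of -3.1, -2.96, -2.91, -2.86 and -2.58. The 15 rises and 15 falls were taken from called genes whose 2 groups did not overlap, so separate groups are no result here. Among these 8 genes the margins were wide in all but AT1G22890. There SOS1 replicate 1 read 8.16 and replicate 2 read 5.20, against 9.51 and 9.79 in salted Col(gl). All 15 rises and all 15 falls passed without SOS1 replicate 1. Without SOS1 replicate 2, 6 of the rises and 6 of the falls passed, without Col(gl) replicate 1 they were 4 and 6, and without Col(gl) replicate 2 they were 4 and 7.

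Set beside the other salted plants, the Col(gl) mean was the one that stood apart for most of these genes. It lay outside the range of the salted M6PR, Col, CBF3 and Ws means for 13 of the 15 largest rises and 14 of the 15 largest falls, and the SOS1 mean did so for 6 and 4. AT3G23550 averaged 5.87 in salted M6PR, 5.75 in Col, 5.76 in CBF3 and 5.43 in Ws, close to the SOS1 arrays and far under Col(gl). Over all 713 called probe sets Col(gl) alone lay outside that range for 443 (62.1%), SOS1 alone for 22 (3.09%), both for 232 (32.5%) and neither for 16 (2.24%). Over all probe sets tested these shares were 25.2%, 11.0%, 15.7% and 48.1%. The pigment genes UF3GT and AT5MAT were among those in which the salted SOS1 mean was the highest of the 6 groups, with Col and M6PR between.

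**Figure D3:**
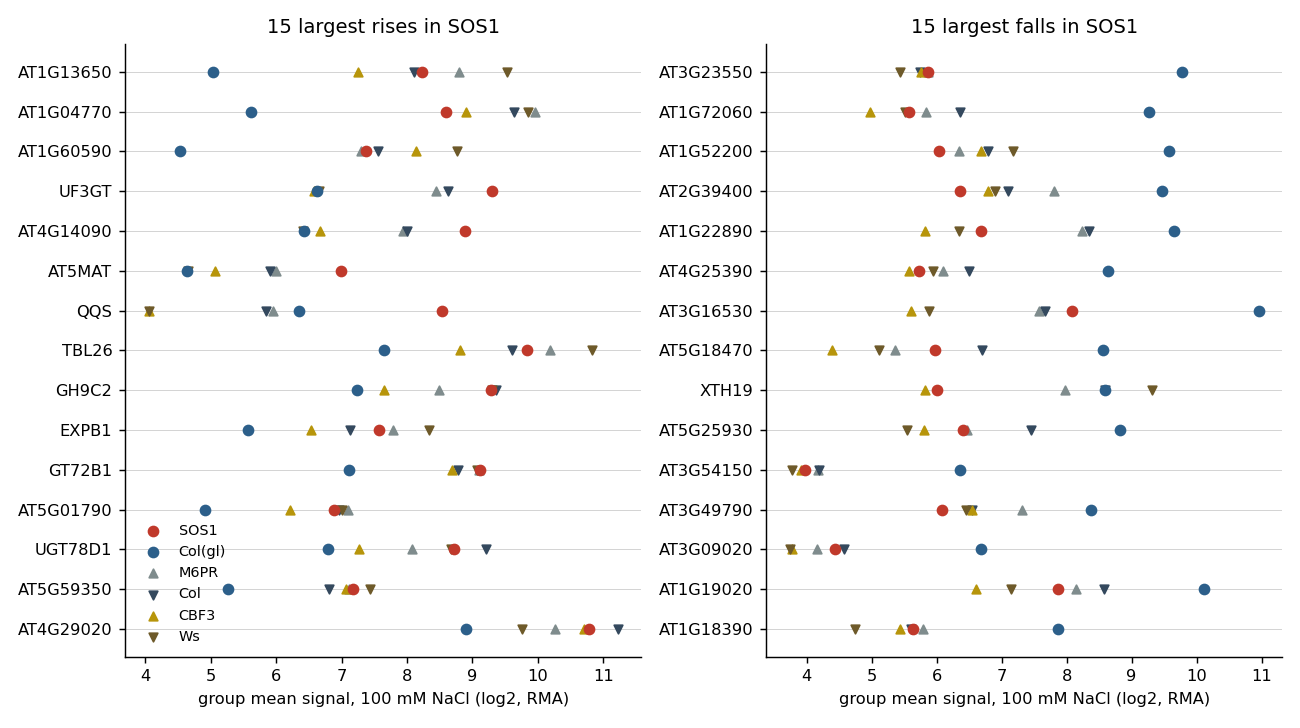
Group mean signal (log2, RMA; mean of 2 arrays) in the 6 salted groups for the 15 largest rises and the 15 largest falls in SOS1 against Col(gl), by single-gene probe set; markers can overlap. Col(gl) lies beyond the salted M6PR, Col, CBF3 and Ws groups for 13 of the 15 rises and 14 of the 15 falls. These genes were picked by the difference between SOS1 and Col(gl), which itself raises such counts.

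In the list of early responses to pathogens and wounding 1 of 9 measured genes fell and 0 rose, with a median log2 fold change of -1.02. The gene was PUB24, an E3 ubiquitin ligase that restrains immune responses, at 6.27 and 5.70 in salted SOS1 and 7.48 and 7.42 in salted Col(gl) (-1.47 ± 0.35, adjusted p = 0.033). WRKY22, PUB23, CML38 and CML42 did not pass, with differences of -1.02, -1.02, -1.26 and -1.89 log2 units. Without SOS1 replicate 1, 5 of the 9 passed as lower, and without any other of the 4 arrays 0 did.

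Among the families, WRKY47 fell by 1.52 log2 units (SE 0.29, adjusted p = 0.010) as 1 of 6 WRKY transcription factors, and the calmodulin-like gene CML30 by 1.85 (SE 0.36, adjusted p = 0.012) as 1 of 7. SAG101, a partner of EDS1 in immune signalling that was first known from senescing leaves, had levels of 5.31 and 4.81 in salted SOS1, against 5.98 and 6.18 in salted Col(gl) (-1.02 ± 0.21, adjusted p = 0.017). It was the 1 of 3 measured salicylate genes, and the 1 of 3 senescence markers, to pass. The salicylate genes GRX480 and BSMT1 went the other way, at 0.51 and 1.18 log2 units, and the median of that list was 0.51. Among the senescence markers SAG29 was at 0.74, and the median was -0.52. Without SOS1 replicate 2, Col(gl) replicate 1 and Col(gl) replicate 2, in this order, the adjusted p was 0.12, 0.098 and 0.087 for WRKY47, 0.13, 0.093 and 0.11 for CML30, and 0.19, 0.098 and 0.15 for SAG101.

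Of 22 cytochrome P450 genes 3 fell and 1 rose, beside 1.7% and 1.44% of all probe sets tested. CYP71B23, CYP71B22 and CYP71B29 had log2 fold changes of -1.78, -0.86 and -0.75, and CYP71B35 one of 1.15. Of 47 UDP-glycosyltransferases with a UGT symbol, 4 rose and 2 fell. Sugar transferases under other names, such as GT72B1 and UF3GT above, are not in this count. Beside UGT78D1 and UGT78D2 the rises were UGT74B1, which glucosylates glucosinolate precursors (1.39 ± 0.27), and UGT88A1 (0.95 ± 0.25). The falls were UGT71B6, which glucosylates abscisic acid (-1.37 ± 0.18), and UGT85A2 (-1.14 ± 0.28). Beside UGT78D1, as given above, UGT71B6 was the only one of these cytochrome P450 and glycosyltransferase genes to keep its call without each of the 4 arrays in turn. The 13 glutathione S-transferases and the 15 defensins and thionins had 0 calls each, with medians of 0.05 and 0.09. Of 5 bHLH factors bHLH34 rose and BHLH101 fell, of 9 U-box ligases PUB24 fell, and of 20 beta-glucosidases BGLU28 fell.

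The iron, sulfur and gibberellin lists and the sugar transporters had at most 1 call each in a direction. Over all probe sets tested 1.44% were called higher and 1.7% lower. BHLH101, a transcription factor of the iron deficiency response, was at 3.95 and 3.78 in salted SOS1 and 4.95 and 4.74 in salted Col(gl). It fell by 0.98 log2 units (SE 0.16, adjusted p = 0.0040), to SOS1 signals near the lowest. PYE, the other measured iron gene, was at -0.28 and did not pass. In the sulfur list of 4 genes SIR, sulfite reductase, rose by 0.59 ± 0.12 (adjusted p = 0.018) and the beta-glucosidase gene BGLU28 fell by 0.52 (SE 0.11, adjusted p = 0.023), from signals near the lowest in both groups. SWEET1, a sugar carrier, rose by 1.01 ± 0.19 log2 units (adjusted p = 0.010) as 1 of 14 measured members of its family. SLY1, the F-box protein that marks DELLA repressors for breakdown, rose by 0.69 ± 0.15 as 1 of 4 gibberellin genes. Without Col(gl) replicate 1 the adjusted p was 0.078 for BHLH101, 0.20 for SIR, 0.22 for BGLU28, 0.077 for SWEET1 and 0.26 for SLY1. Without SOS1 replicate 2 it was 0.051, 0.097, 0.20, 0.0093 and 0.068 in the same order.

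The lists for sodium and potassium transport and for abscisic acid and drought had few measured genes and 0 calls. Of the sodium and potassium transport list 2 genes were measured, CHX21 and GI, with log2 fold changes of -0.02 and 0.03. The abscisic acid and drought list had 5 measured genes, COR15A, COR15B, COR47, LTI30 and LEA4-5. Their log2 fold changes were 0.65, 0.15, 0.05, 1.03 and 1.1, and 0 passed. LTI30, a dehydrin, had levels of 10.06 and 9.48 in salted SOS1 and 8.61 and 8.86 in salted Col(gl) (adjusted p = 0.27). COR15A, which protects chloroplast membranes, had levels of 12.61 and 12.61 in salted SOS1 and 11.87 and 12.04 in salted Col(gl) (adjusted p = 0.070). Outside these lists, and chosen after its value was seen, the drought-induced gene DI21 had levels of 7.41 and 7.71 in salted SOS1 and 6.32 and 6.19 in salted Col(gl), a rise of 1.31 ± 0.29 log2 units (adjusted p = 0.024). Its adjusted p was 0.18 without SOS1 replicate 2 and 0.16 without either Col(gl) replicate. The 5 cation/proton exchangers had 0 calls and a median of 0.01. Jasmonate genes (4 measured) had 0 calls and a median of 1.01, where PDF1.2, a defensin, was at 9.42 and 9.08 in salted SOS1 and 7.11 and 7.44 in salted Col(gl) (adjusted p = 0.38). Auxin genes (5 measured, median 0.23) and antioxidant genes (4 measured, median 0.24) had 0 calls as well. Lists for ethylene, camalexin, heat, nitrogen, phosphate, the clock, cytokinin and chlorophyll had 1 or 2 measured genes each and 0 calls. The phloem marker SWEET11, a sucrose exporter, read 11.65 and 11.82 in salted SOS1 and 11.86 and 11.92 in salted Col(gl).

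Trichome markers were looked at because the labels give Col(gl), a glabrous stock, as the background of both groups. The markers measured were GIS, TRY and SIM of a list of 13. GIS, a zinc finger protein that promotes trichome initiation, had levels of 6.34 and 8.15 in salted SOS1, against 5.79 and 5.19 in salted Col(gl), and rose by 1.76 ± 0.44 log2 units (adjusted p = 0.043). TRY, a repressor of trichomes, and SIM, a cell cycle inhibitor that acts in them, were at 0.98 ± 0.33 and -0.92 ± 0.29 and did not pass. The GIS call was lost without SOS1 replicate 2 (adjusted p = 0.41), Col(gl) replicate 1 (0.15) and Col(gl) replicate 2 (0.29). SIM was called lower at 0 mM NaCl (-1.40 ± 0.29, adjusted p = 0.030). Photosynthesis genes of the nucleus (10 measured, median 0.04) and genes of the chloroplast genome (69 measured, median -0.01) had 0 calls under salt.

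Regulators of development were among the called genes that carry a symbol, 36 higher and 27 lower; these examples were chosen after their values were seen. STOMAGEN, a peptide of the mesophyll that raises stomatal density, had levels of 8.57 and 8.65 in salted SOS1, against 7.33 and 7.52 in salted Col(gl), a rise of 1.18 ± 0.24 log2 units (adjusted p = 0.014). SNZ and SMZ, AP2-like repressors of flowering, rose by 1.38 ± 0.31 and 0.79 ± 0.20 log2 units (adjusted p = 0.027 and 0.047). AGO7, an Argonaute protein of the trans-acting small RNA pathway, rose by 1.29 ± 0.32 (adjusted p = 0.040). All 4 calls were lost without SOS1 replicate 2, Col(gl) replicate 1 or Col(gl) replicate 2, and that of SMZ also without SOS1 replicate 1 (adjusted p = 0.15), with adjusted p of 0.077 to 0.18 for STOMAGEN and of 0.12 to 0.36 for the other 3 genes. The guard cell markers SPCH, MUTE and FMA, which act in the stomatal lineage, were at 0.48, 0.14 and -0.16 and did not pass.

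Among the falls chosen in the same way, HHP2, of the heptahelical membrane protein family, was at 5.52 and 4.93 in salted SOS1 and 6.93 and 7.01 in salted Col(gl) (-1.74 ± 0.20, adjusted p = 0.00023). BZIP60, a transcription factor of stress in the endoplasmic reticulum, was at 8.58 and 8.19 in salted SOS1 and 9.50 and 9.52 in salted Col(gl) (-1.12 ± 0.18, adjusted p = 0.0038). B120, a receptor-like kinase gene, fell by 1.94 log2 units, and CCOAMT, a methyltransferase of phenylpropanoids, by 1.35. HHP2, B120 and CCOAMT passed without each of the 4 arrays in turn, with adjusted p of at most 0.0075, 0.032 and 0.017. For BZIP60 the adjusted p was 0.056 without SOS1 replicate 2, 0.052 without Col(gl) replicate 1 and 0.050 without Col(gl) replicate 2.

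Most of the differences were also seen without salt, in arrays that the salted comparison does not share. Of the 327 probe sets higher under salt 319 (97.6%) had the same sign at 0 mM NaCl, as did 377 of the 386 lower ones (97.7%), while 68.2% of all probe sets tested had the same sign at both salt levels. The median log2 fold change of these probe sets at 0 mM NaCl was 0.63 for the higher and -0.85 for the lower ones. At 0 mM NaCl limma called 281 probe sets (1.24%), 81 higher (0.356%) and 200 lower (0.879%), and 43 and 127 of these were called in the same direction under salt. A change of at least 2-fold was seen for 164 (0.721%). Apart from QQS the clearest genes at both levels were AT4G34220, which rose by 1.07 log2 units with salt and 1.31 without it, and 6 genes that fell. AT1G51790 was at 6.22 and 6.08 in salted SOS1 and 7.65 and 7.58 in salted Col(gl) (-1.47 ± 0.13, adjusted p = 2.3e-05), and its difference at 0 mM NaCl was -1.18 ± 0.13. AT3G57700 was at -1.32 with salt and -1.48 without it. The other 4 were AT4G25280, TBL18, AT4G25370 and AT4G25390.

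**Figure D4:**
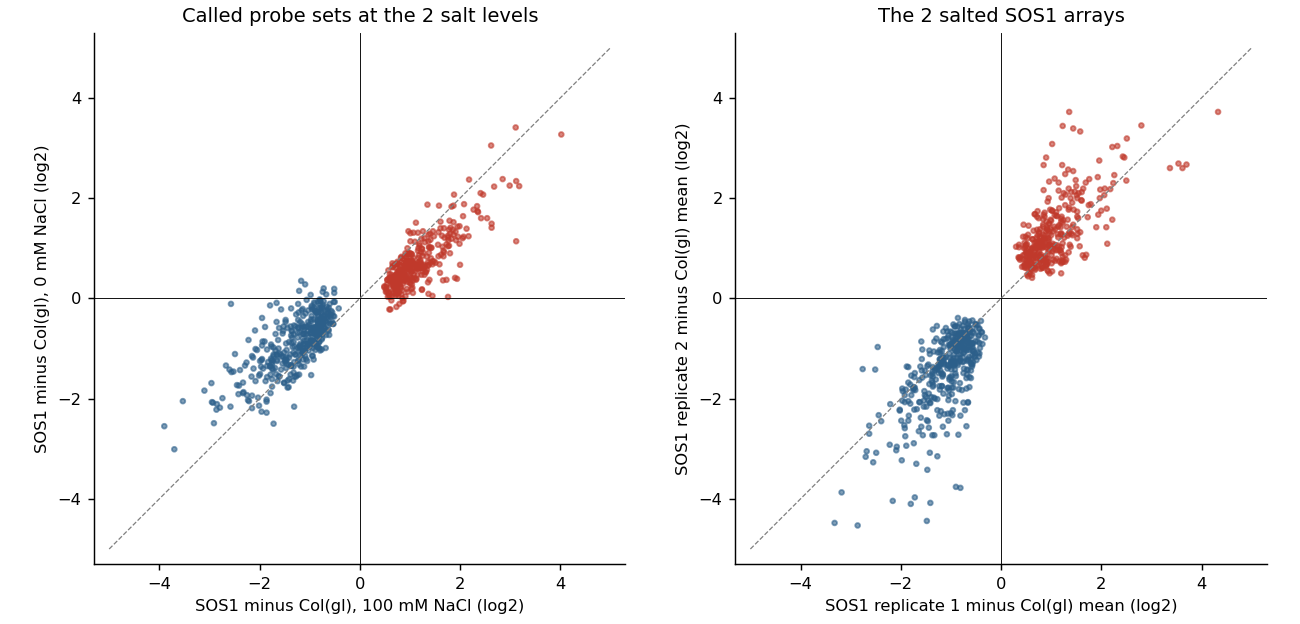
Left, log2 fold change of SOS1 against Col(gl) at 100 mM NaCl (x) and at 0 mM NaCl (y) for the 713 called probe sets, red where higher and blue where lower in salted SOS1; 319 of 327 and 377 of 386 keep their sign. Right, each of the 2 salted SOS1 arrays minus the salted Col(gl) mean (log2) for the same probe sets, with replicate 1 nearer to 0 for 227 of the 327 red and 285 of the 386 blue points; dashed lines mark equal values.

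Those last 4 genes are neighbours on chromosome 4, which was noticed after their values were seen. Along the 13217 genes of chromosomes 1 to 5 with a single-gene probe set, windows of 10 consecutive measured genes held at most 6 called as lower, in the stretch from AT4G25260 to AT4G25390, and at most 3 elsewhere. For calls in the other direction the most was 3. The stretch holds 8 measured genes. AT4G25280 was at 7.50 and 7.62 in salted SOS1 and 8.87 and 9.07 in salted Col(gl), a change of -1.41 ± 0.12 log2 units (adjusted p = 2.3e-05). TBL18 was at 7.57 and 7.44 in salted SOS1 and 8.6 and 9.0 in salted Col(gl) (-1.30 ± 0.16, adjusted p = 0.00042). AT4G25370 was at 10.03 and 10.21 in salted SOS1 and 11.19 and 11.39 in salted Col(gl) (-1.17 ± 0.14). AT4G25390 changed most, with 6.08 and 5.37 in salted SOS1 and 8.71 and 8.56 in salted Col(gl) (-2.91 ± 0.30), and AT4G25260 and SHB1, a gene of light-dependent hypocotyl and seed growth, had log2 fold changes of -1.33 and -0.90. AT4G25280, TBL18, AT4G25370 and AT4G25390 passed without each of the 4 arrays in turn. AT4G25260 did not without SOS1 replicate 2, Col(gl) replicate 1 or Col(gl) replicate 2 (adjusted p = 0.24, 0.24 and 0.17), and SHB1 did not without any of the 4 (adjusted p = 0.073 to 0.25).

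The same 6 genes lay apart in all Col(gl) arrays. At 0 mM NaCl 5 of them were again called lower, at -1.64 (AT4G25260), -1.61 (AT4G25280), -1.56 (TBL18), -1.36 (AT4G25370) and -2.49 (AT4G25390), and SHB1 was at -0.73 (adjusted p = 0.095). For each of the 6 the 4 Col(gl) arrays, salted and unsalted, lay above all 20 arrays of the other 5 genotypes, as they did for 259 (1.14%) of all probe sets tested and for 125 (32.4%) of the 386 called lower under salt. For 83 (25.4%) of the 327 called higher the 4 Col(gl) arrays lay below all others. A call between the salted groups already sets the Col(gl) arrays apart from the SOS1 arrays. The shares among called probe sets are therefore raised by the selection itself, by an amount that was not measured. AT4G25280 spanned 7.31 to 7.67 over those 20 arrays, with SOS1 among them, against 8.87 to 9.11 in Col(gl). By locus number a probe set shared by AT4G25300 and AT4G25310 also lies between the 6, and was not counted because it is paired with several genes. It was called lower with salt (-1.23, limma, adjusted p = 0.017) and without it (-1.25, adjusted p = 0.029). OTP70 and AT4G25330, which lie between the 6 as well, were at -0.49 and 0.03 and did not pass. AT4G25330 stood near the lowest signals, as did AT4G25250 and AT4G25410 on either side. The SOS1 arrays lay with the other genotypes at the 6 genes, although the labels give SOS1 the Col(gl) background. Whether the SOS1 line and the Col(gl) stock share the background the labels give them was not tested.

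**Figure D5:**
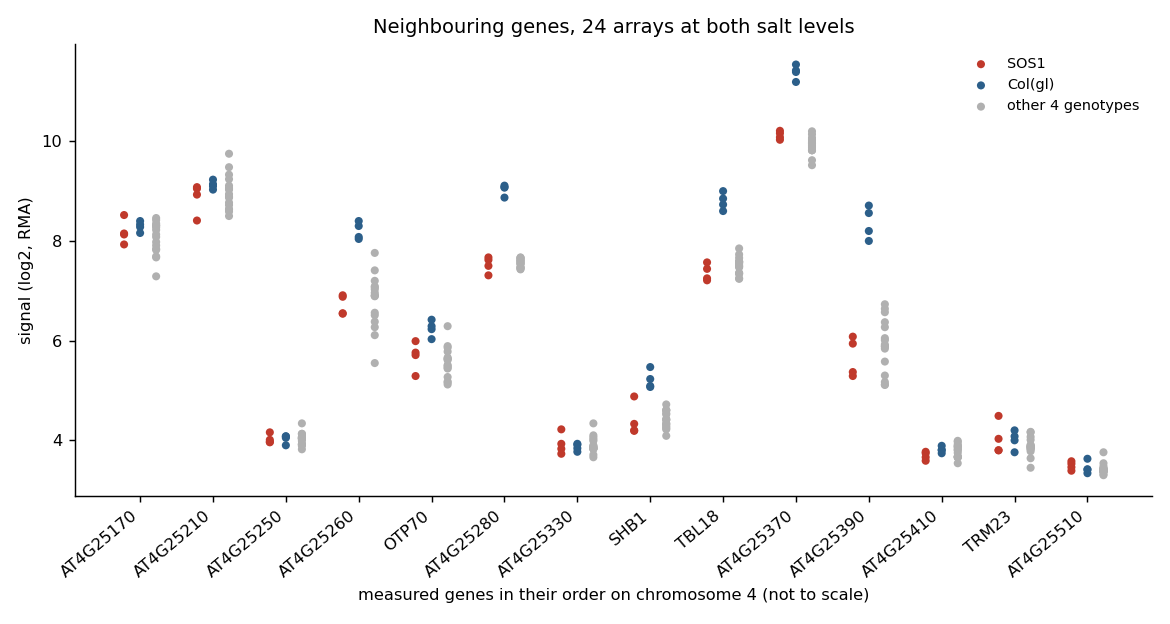
Signal (log2, RMA) of 14 measured genes in their order on chromosome 4, in all 24 arrays at both salt levels: 4 of SOS1 (red), 4 of Col(gl) (blue) and 16 of the other 4 genotypes (grey). For AT4G25260, AT4G25280, SHB1, TBL18, AT4G25370 and AT4G25390 the Col(gl) points lie above all others, and the genes on either side overlap.

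Whether salt changed the line effect was tested directly, and 0 probe sets passed (limma; lowest adjusted p 0.12). That is 0.0% of those tested, and at an unadjusted p below 0.05 there were 672 (2.95%). Without unsalted SOS1 replicate 2 this test called 661 probe sets and the comparison at 0 mM NaCl 4439, and without salted SOS1 replicate 1 it called 33. The single-gene probe sets with the smallest p over all arrays were those of BHLH101, UGT71B6 and AT4G18250, each with an adjusted p of 0.93. AT4G18250 was at 3.84 and 3.95 in salted SOS1 and 5.87 and 5.72 in salted Col(gl), and at 3.9 and 4.2 in unsalted SOS1 and 5.07 and 4.76 in unsalted Col(gl). UGT71B6 was at 4.40 and 4.39 in salted SOS1 and 5.94 and 5.58 in salted Col(gl), and at 4.79 and 4.48 in unsalted SOS1 and 4.98 and 4.68 in unsalted Col(gl). The salted SOS1 signals of both genes lay near the lowest. For both the salted Col(gl) arrays were the highest of the 8, and the salted M6PR, Col, CBF3 and Ws means of UGT71B6 lay at 4.43, 4.39, 4.40 and 4.17.

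In the fit restricted to the arrays of SOS1 and Col(gl), 5 probe sets passed this test, all of chloroplast genes, named here after their values were seen: psaA, atpF, atpH, accD and a probe set of rps12 (adjusted p = 0.026 to 0.043). psaA, a core subunit of photosystem I, was at 12.54 and 12.35 in salted SOS1 and 12.12 and 12.14 in salted Col(gl), but at 12.65 and 12.39 in unsalted SOS1 and 9.50 and 9.43 in unsalted Col(gl). atpH, a subunit of the chloroplast ATP synthase, was at 11.96 and 12.03 in unsalted SOS1 and 8.70 and 8.40 in unsalted Col(gl), and the salted means differed by 0.28 ± 0.96. In the fit to all 24 arrays the same differences of line effects, -2.74 for psaA and -3.16 for atpH, had adjusted p of 1.0. Over the 69 measured chloroplast genes the median log2 fold change of SOS1 against Col(gl) was 0.74 at 0 mM NaCl, where 4 passed as higher, and -0.01 at 100 mM.

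The line effect of SOS1 under salt was also set against those of the other lines. It differed from that of M6PR against Col in 620 probe sets (2.73%), with 354 higher (1.56%), 266 lower (1.17%) and 522 differing at least 2-fold (2.29%). It differed from that of CBF3 against Ws in 1089 (4.79%), with 584 higher (2.57%), 505 lower (2.22%) and 920 differing at least 2-fold (4.04%). After centring of the arrays at their medians the split was 259 higher and 498 lower against M6PR and 439 higher and 706 lower against CBF3. Both tests use the same salted SOS1 and Col(gl) arrays as the comparison above. In both of those lines a free-text label names a background other than the one in the background field, which was followed together with the titles. The smallest p for M6PR were those of AT1G51790 (-1.72), AT4G18250 (-2.05), AT1G78450 (-2.80), AT2G45340 (2.29) and AT3G54150 (-2.37), as differences of log2 fold changes with adjusted p of 0.00046 to 0.00068. AT3G54150 was at 3.91 and 4.03 in salted SOS1 and 6.53 and 6.19 in salted Col(gl), while salted M6PR and Col averaged 4.17 and 4.19. Of these values all but those of Col(gl) lay near the lowest signals.

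Against CBF3 the smallest p were those of AT2G24560 (-3.73), AT1G78450 (-3.52), tny (-3.36), AT4G19430 (1.93) and AT4G01140 (-2.68). For 4 of these 5, all but AT1G78450, SOS1 and Col(gl) differed by at most 0.19 log2 units under salt. tny, an AP2-type transcription factor gene, was at 5.17 and 4.98 in salted SOS1 and 5.12 and 5.15 in salted Col(gl), but averaged 8.49 in salted CBF3 and 5.20 in salted Ws. AT1G78450 was at 6.46 and 6.04 in salted SOS1 and 7.24 and 7.42 in salted Col(gl), and averaged 8.20 in salted CBF3 and 5.76 in salted Ws. Of the pigment genes, UGT78D1 passed both tests, at 3.05 ± 0.40 against M6PR and 3.33 ± 0.40 against CBF3, and UF3GT did so at 2.86 and 2.76 (adjusted p = 0.036 and 0.028).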

How the data were processed

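Leaf RNA of 24 samples was hybridised to Affymetrix ATH1 arrays. The log2 values are those the authors deposited, for which the submitters' processing notes name GCOS and RMA (versions not given in the sources used here). RMA as usually run normalizes arrays together, so a shift shared by most genes cannot be seen, and low signals are compressed. Array number, not depth, limits the precision.

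A linear model with 12 group means was fitted to all 24 arrays (limma 3.58.1, R 4.3.3; 12 residual and 3.11 prior degrees of freedom). Benjamini-Hochberg adjustment ran over 22746 probe sets, and an adjusted p below 0.05 was a call. Each comparison has 2 arrays a group, and SE means the model's standard error. GEO's platform annotation paired 13513 probe sets with 1 gene, 503 with several and 8730 with none, and 13436 of the first were matched by gene ID to RefSeq (TAIR10.1), which also gave the gene order. No probe set of SOS1 was among them. Each probe set was tested, and the brightest stood for its gene in lists, families and gene order.

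Text genes were the 15 largest rises and falls, called members of 35 lists (776 entries, 106 measured) and of 15 families, the 8 clearest genes at both salt levels, and the 3 or 5 smallest p of the other tests. The other genes are named as chosen later. Members and lists were chosen with earlier results of these data known, and 9 entries of the wrong gene were left out. Families other than the chloroplast genes were formed by gene symbol, so members under a locus tag or another name were not counted. The fit of the salted comparison was run on simulated data, with independent noise of the same spread in all groups for each probe set. That run could not show the effect of the unequal spread of the groups here. Replicate numbers did not pair samples: their deviations correlated at -0.0 between the salted groups, and from -0.36 to 0.7 over 66 pairs of groups. Alternatives were other normalizations, a filter on dim probe sets, other priors, array weights, fewer arrays and the replicate block.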

Additional observations from a re-analysis of the deposited data

How the results depend on the processing

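With 2 arrays a group, the number of calls depended on single arrays and on which arrays share the estimate of spread, and so did the balance of higher and lower calls. Of 96 called probe sets followed singly, 0 reversed under any alternative, but most alternatives could not have reversed a call between the salted groups. The 2 groups did not overlap for any of these 713 calls, so leaving out an array could not change the sign. Other priors, array weights, the replicate block, the filter on dim probe sets and fits to fewer groups left the difference of means unchanged. Only the other normalizations could have reversed such a call. Under all alternatives 6 of the 96 kept their call (QQS, AT1G51790, AT1G52200, AT3G54150, AT4G18250 and a probe set with no gene). The cause of the changes in count below was not tested, other than that fits to fewer arrays have fewer degrees of freedom.

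The 713 calls between salted SOS1 and salted Col(gl) became 1145 with array weights, 246 (161 higher, 85 lower, against 327 and 386) with the 8 arrays of this background, 73 with the 4 arrays compared, 410 at 2-fold or more and 194 at an adjusted p below 0.01. They were 794 (289 higher, 505 lower) with quantile normalization and 635 to 737 with centring, the other priors and the filter on dim probe sets. Leaving out 1 array gave 88 (without Col(gl) replicate 1) to 1483 (without SOS1 replicate 1). At 0 mM NaCl the 281 calls became 8 with array weights, 489 (76 higher, 413 lower) with centred arrays, 51 (40 higher, 11 lower, against 81 and 200) with the 8 arrays and 0 with the 4 arrays compared, and leaving out 1 array gave 16 to 4439. The test of salt on the line effect called 0, but 1 with an intensity trend (a probe set with no gene) and 5 in the fit to the 8 arrays. Leaving out 1 array gave 0 to 661.

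The difference from the M6PR line (620) became 13 with the groups compared alone and 260 without the 2 arrays of low dap spike-in, salted Ws replicate 1 and salted Col replicate 1. The difference from the CBF3 line (1089) became 104 and 587 in these fits. Leaving out 1 array gave 102 to 1899 and 402 to 2083. Quantile normalization split them into 307 higher and 439 lower, and into 517 and 691. Centring moved the median over all probe sets from -0.04 to -0.22 for M6PR and from -0.02 to -0.12 for CBF3. Members of lists and families called, 31 of 343 genes, were 3 to 45 without 1 array.

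The replicate number as a block gave 760 calls for the salted groups, 319 at 0 mM NaCl and 0 for the test of salt. It gave 649 for M6PR and 1140 for CBF3. None of these lay over 1.5 times from the counts above. The block takes out only a shift common to all groups, and the number was not taken to pair the samples.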
